A study of Mus musculus with 32 samples.

Results

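The 10 genes described here are the planar cell polarity genes whose loss in mice is best known for leaving the neural tube open, together with close relatives. They are Vangl1, Vangl2, Celsr1, Celsr2, Celsr3, Fzd3, Fzd6, Prickle1, Scrib and Ptk7. They were taken as a named list, and each was found by its Ensembl identifier, so 10 of 48576 identifiers in the files are covered and none is missing. RNA was sequenced from forebrain (Fb) and midbrain (Mb) tissue of E9.5 mouse embryos in 32 libraries, 16 of each tissue. Each tissue had 6 WT, 4 TKO_Ex, 3 DKO_Ex and 3 DKO_CD libraries. TKO_Ex embryos lacked Cdh6, Cdh8 and Cdh11 (Cdh6/8/11 triple knockout) and had exencephaly, an open and everted cranial neural tube. DKO_Ex embryos were Cdh8/11 double knockouts with exencephaly, and DKO_CD embryos were double knockouts with a cranial defect, an elongated Mb without exencephaly, which the paper calls Cdh8/11 and the labels Cdh6/8. All mutant alleles came from 1 genome-edited founder with a small frameshift deletion inside the exon that holds the start codon of each cadherin gene, carried in every cell, and the labels give the strain of all embryos as B6C3F1. Mutant embryos came from crosses of triple heterozygous parents and WT embryos from WT parents, so genotype and parentage cannot be told apart in comparisons of a mutant with WT. No age other than E9.5 and no treatment separated the groups.

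Planar cell polarity aligns cells within the plane of an epithelium. The transmembrane protein Vangl, with its cytoplasmic partner Prickle, on one side of a cell faces Frizzled on the neighbouring cell, and the atypical cadherins of the Celsr family bridge both sides. In the closing neural tube this pathway narrows and lengthens the neural plate and directs actomyosin to the junctions that bend it, and cranial and spinal closure both depend on it in mice.

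Several values of the whole series bear on the results. Libraries held an estimated 1.95 to 3.24 M (mega) fragments, with a median of 2.61 M. In Mb the range was 2.385 to 2.91 M in WT, 1.95 to 2.335 M in TKO_Ex and 3.085 to 3.23 M in DKO_Ex. DKO_CD Mb had 2.46 to 2.75 M. Depth and group thus cannot be told apart in Mb for TKO_Ex and DKO_Ex against WT, or for DKO_Ex against DKO_CD. The 12 DKO files carry conflicting labels, since each is headed as one DKO group and listed under the other. Groups here follow the headings, and by the listing DKO_Ex and DKO_CD exchange names throughout, with the same values. Level was measured as FPKM, fragments scaled by transcript length and library depth, so levels of different genes can be set beside each other. The midbrain marker En1 had a median of 41.8 in WT Mb and was at most 0.936 in WT Fb. WT Mb replicate 5 stood apart, since 7 midbrain and isthmus markers summed to 36.5 FPKM there and to 109 or more in the other WT Mb libraries. A small deletion within an exon need not remove the transcript, so the cadherin levels are a weak check of the labels. Cdh6 was 0.388, 0.353, 3.10 and 0.345 FPKM in the 4 TKO_Ex Mb libraries against 1.04 to 3.55 in WT Mb. The Mb library labelled TKO_Ex replicate 3 was thus in the WT range. The Fb library of that number, at 3.74 FPKM, was in the WT range of 2.04 to 4.0 too. The main results with TKO_Ex are therefore given with and without the libraries of that number. Cdh8 was 0.851 to 2.32 FPKM in TKO_Ex Mb against 1.14 to 10.1 in WT Mb, and Cdh11 was 14.5 to 16.6 against 17.9 to 28.7. In Fb, Cdh11 was 17.1 to 18.7 FPKM in DKO_Ex and 12.7 to 25.3 in DKO_CD against 19.5 to 25.3 in WT, and Cdh6 was 3.62 to 4.34 and 1.72 to 3.43 against 2.04 to 4.0. Which naming of the DKO groups is right was not tested with these levels.

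The promoter letters of the Celsr genes are shown because 3 of the 4 members that were higher in Mb belong to this family, and that of Ptk7 because its level was alike in both tissues. RefSeq on GRCm38.p6 gave promoters for 5 of the 10 members, Vangl2, Celsr2, Celsr3, Prickle1 and Ptk7. Each sequence shown is the 250 bases before the annotated start, on the strand of the gene. Capitals mark the GC box GGGCGG or its reverse complement, the site of Sp-family factors. TATAAA and CCAAT were also searched on both strands and were not found in these windows. Celsr2 is at chr3:108415580-108415829 on the minus strand, Celsr3 at chr9:108825795-108826044 on the plus strand and Ptk7 at chr17:46629505-46629754 on the minus strand.
Celsr2: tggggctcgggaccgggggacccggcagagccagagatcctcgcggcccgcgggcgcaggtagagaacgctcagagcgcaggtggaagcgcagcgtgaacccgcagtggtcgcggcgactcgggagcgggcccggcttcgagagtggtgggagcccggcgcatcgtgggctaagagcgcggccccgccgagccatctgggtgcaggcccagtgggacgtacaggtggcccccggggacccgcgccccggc
Celsr3: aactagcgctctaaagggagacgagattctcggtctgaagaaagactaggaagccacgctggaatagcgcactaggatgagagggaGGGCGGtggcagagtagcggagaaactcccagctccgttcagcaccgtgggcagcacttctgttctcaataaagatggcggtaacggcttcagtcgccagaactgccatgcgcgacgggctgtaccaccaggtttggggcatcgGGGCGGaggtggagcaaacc
Ptk7: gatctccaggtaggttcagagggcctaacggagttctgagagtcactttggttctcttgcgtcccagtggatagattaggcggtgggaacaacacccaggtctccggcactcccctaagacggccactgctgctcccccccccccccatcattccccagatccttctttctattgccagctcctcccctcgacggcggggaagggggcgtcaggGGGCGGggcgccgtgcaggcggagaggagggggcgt
The Celsr2 window holds 32 CG dinucleotides, which is more than in 95.4% of the 32851 promoters of the table, where the median is 6. It has no GC box, while the Celsr3 window has 2 and the Ptk7 window 1. A GC box is found in 32.7% of all promoter windows, TATAAA in 12.4% and CCAAT in 33.8%.

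The genes lie on 6 chromosomes of GRCm38. Celsr1, Fzd6, Prickle1 and Scrib are on chromosome 15, where the targeted Cdh6 also lies, at 72.7, 25.8, 80.3 and 62.9 Mb from it. Vangl1 and Celsr2 are on chromosome 3, Vangl2 on 1, Celsr3 on 9, Fzd3 on 14 and Ptk7 on 17, and none is on chromosome 8 with Cdh8 and Cdh11. The full positions are 102153583 to 102204693 for Vangl1, 172000960 to 172028444 for Vangl2, 85898929 to 86033777 for Celsr1, 108390851 to 108415552 for Celsr2 and 108826320 to 108852969 for Celsr3.

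In WT embryos the highest mean of the 10 genes was that of Scrib, a scaffold of the basolateral membrane that binds Vangl2, at 48.4 FPKM in Mb and 39.6 in Fb. In Mb it was followed by Celsr2 (42.8), Vangl2 (32.5), Ptk7 (32.1), Celsr1 (10.3), Fzd3 (6.85), Vangl1 (5.93), Prickle1 (3.37), Celsr3 (3.07) and Fzd6 (2.15). In Fb the order after Scrib was Ptk7 (34.3), Vangl2 (20.9), Celsr2 (16.8), Vangl1 (7.63), Fzd3 (5.27), Celsr1 (3.67), Prickle1 (3.63), Fzd6 (2.57) and Celsr3 (0.882). Neighbours in either order were compared within each library by a two-sided exact permutation test over the 6 libraries of the tissue, 18 pairs in all. In 7 pairs the order was the same in all 6 libraries. The smallest exact p that 6 libraries allow, 0.03125, became 0.0804 after adjustment over the 18 pairs, and no pair passed 0.05. Celsr1 was above Fzd3 in all 6 WT Mb libraries and below it in all 6 WT Fb libraries. Scrib was above Celsr2 in 4 of 6 WT Mb libraries (exact p = 0.125) and above Ptk7 in 4 of 6 WT Fb libraries (exact p = 0.156). Vangl2 and Ptk7 in Mb did not differ beyond their spread (3 of 6 libraries each way, exact p = 0.906), nor did Celsr1 and Prickle1 in Fb (exact p = 0.844).

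Among the members of each family a single paralogue supplied most of the transcript. Vangl2 made up 79.6% to 93.0% of the summed FPKM of Vangl1 and Vangl2 in WT Mb and 64.7% to 89.1% in WT Fb. Celsr2 made up 73.2% to 79.0% of the 3 Celsr genes in WT Mb and 72.8% to 86.2% in WT Fb, and Celsr3 at most 8.91% and 6.66%. Fzd3 supplied 68.0% to 84.0% of the Fzd3 and Fzd6 total in WT Mb and 60.6% to 74.6% in WT Fb. That total leaves out the other Frizzled receptors. Of these, Fzd2, given below, was above Fzd3 in both WT tissues. These shares are ratios of levels per length and no test was made of them.

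**Figure D1:**
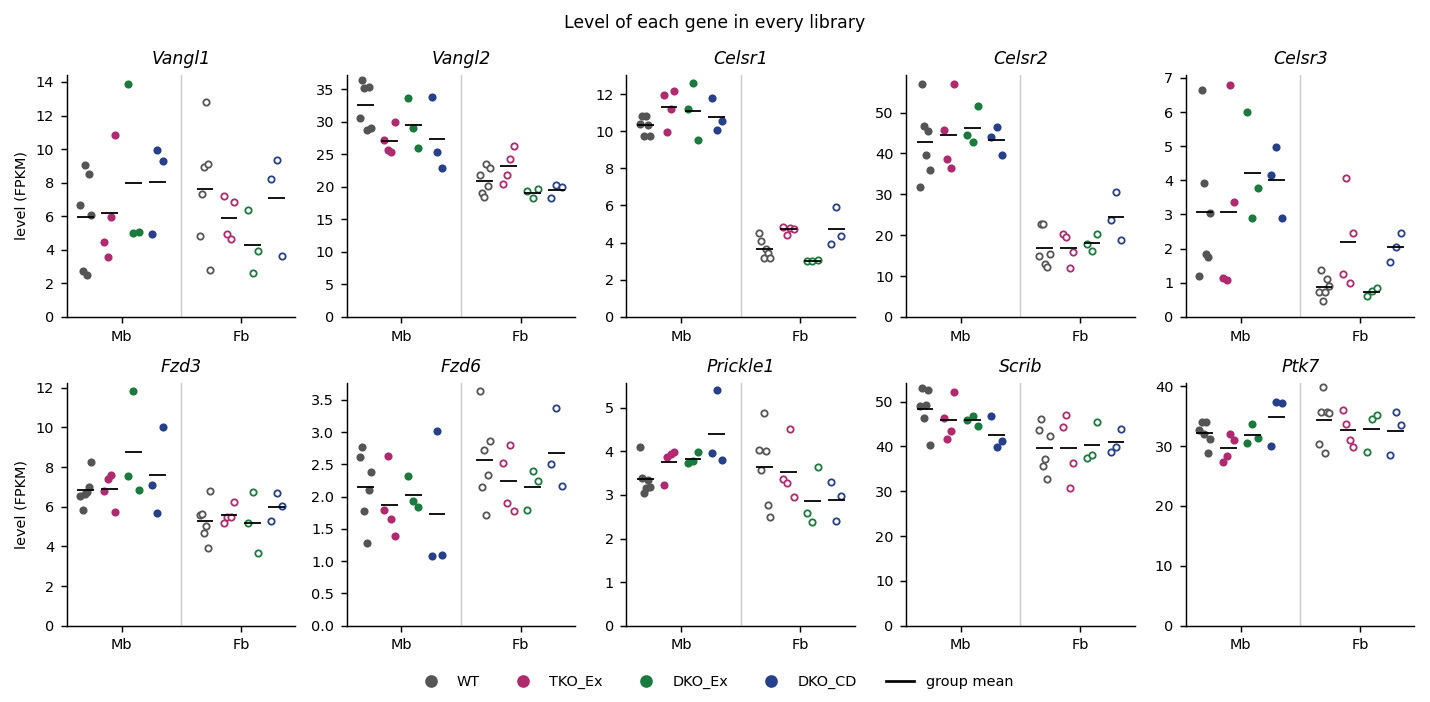
Level in FPKM of each of the 10 genes in every library (vertical axis, from 0, scaled for each gene), with Mb libraries as filled points on the left of each panel and Fb libraries as open points on the right. Colours give the genotype by column heading and black lines the group mean. Celsr1 and Celsr2 are the genes whose 16 Mb libraries all lie above all 16 Fb libraries, while the points of the mutant groups overlap those of WT in most panels.

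The question of how Mb and Fb differ was asked first in WT, with 6 libraries a tissue. Differences are on the log2(FPKM + 1) scale and were tested with limma, with p-values adjusted by Benjamini-Hochberg over all genes tested. Of the 10 members, 4 were higher in Mb and none was lower. Of the 13344 genes tested 8.26% passed, 4.66% as higher and 3.6% as lower. The 4 were Celsr1, Celsr2, Vangl2 and Celsr3. The median log2 difference of the members was 0.31, and that of all genes was -0.0033.

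Celsr1, an atypical cadherin that recruits Frizzled and Vangl to cell junctions, was 9.73 to 10.8 FPKM in WT Mb (median 10.4) and 3.15 to 4.5 in WT Fb (median 3.54). No Mb library overlapped an Fb library. Its mean was 2.81-fold higher in Mb, with a log2 difference of 1.28 ± 0.098 (SE, n = 6 and 6, limma adjusted p = 1.76e-06). Celsr2, the relative that also acts in cilia of the brain lining, was 31.7 to 57.1 FPKM in Mb (median 42.6) and 12.2 to 22.7 in Fb (median 15.2). Its groups did not overlap either, and the mean was 2.55-fold higher, with a log2 difference of 1.31 ± 0.177 (SE, limma adjusted p = 0.000268). Among all genes tested, 3.36% were higher in Mb with no overlap of the 6 and 6 libraries.

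Vangl2, the core transmembrane protein mutated in the Loop-tail mouse, was 28.7 to 36.3 FPKM in WT Mb (median 32.9) and 18.4 to 23.5 in WT Fb (median 21.0). All 6 Mb libraries were above all 6 Fb libraries. The mean was 1.55-fold higher, with a log2 difference of 0.61 ± 0.0908 (SE, limma adjusted p = 0.000614). Celsr3, known mainly from axon guidance in young neurons, was 1.19 to 6.64 FPKM in Mb (median 2.44) and 0.456 to 1.38 in Fb (median 0.810), and these ranges overlapped. Its log2 difference was 1.0 ± 0.275 (SE, limma adjusted p = 0.0403), and each Fb value rested on an estimated 14 to 46 fragments. Celsr3 no longer passed when any 1 of WT replicates 2, 3, 4, 5 or 6 was left out (limma adjusted p of 0.0627 to 0.171).

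The other 6 members did not pass the threshold. Scrib was 40.4 to 53.0 FPKM in WT Mb against 32.7 to 46.1 in Fb, a log2 difference of 0.29 ± 0.0976 (SE, limma adjusted p = 0.0971). Fzd3, a Frizzled receptor that acts with Fzd6 in neural tube closure, was 5.86 to 8.28 FPKM against 3.93 to 6.82, with a log2 difference of 0.33 (95% interval 0.07 to 0.60, limma adjusted p = 0.130). Both had an unadjusted p under 0.05, as 20.9% of all genes had, and both had overlapping groups. Ptk7, a pseudokinase receptor of the pathway, was 28.8 to 34.0 FPKM in Mb and 28.9 to 39.8 in Fb, and the 95% interval of its log2 difference was -0.27 to 0.10. Prickle1, a cytoplasmic partner of Vangl2, had an interval of -0.37 to 0.24 and Fzd6 one of -0.54 to 0.19. For Vangl1, the less abundant Vangl paralogue, the interval was -1.06 to 0.42, the widest of the 10.

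Markers of other cell types moved with the same comparison. All 6 neuron markers were higher in WT Mb, with a summed level of 39.8 to 90.7 FPKM in Mb and 8.88 to 17.5 in Fb. All 6 of the 7 surface ectoderm markers that were tested were lower, with sums of 26.6 to 41.2 and 63.7 to 108. Of the 6 tested cranial mesenchyme markers 4 were lower, with sums of 107 to 196 and 184 to 216, and of 7 neuroepithelium markers 3 were higher, with sums of 556 to 734 and 353 to 491. None of the 6 endothelium markers and none of the 5 primitive red cell markers passed, and of 4 tested neural crest markers 1 was higher and 1 lower. The part of these cell types in the members' differences was not tested, and in tissue of mixed cells fewer cells of a type and less RNA per cell cannot be told apart. Without the Mb and Fb libraries of WT replicate 5, Celsr1 (log2 difference 1.27, limma adjusted p = 3.67e-05), Celsr2 (1.21, 0.00249) and Vangl2 (0.58, 0.00562) passed and Celsr3 did not (0.0639), against 5.91% of all genes.

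In the mutants the same comparison was made with fewer libraries, and each genotype used its own Mb and Fb libraries. Celsr1 was 11.9, 9.98, 11.2 and 12.1 FPKM in TKO_Ex Mb and 4.86, 4.42, 4.81 and 4.74 in TKO_Ex Fb. Celsr2 was 45.7, 38.6, 36.5 and 56.9 in Mb and 20.3, 19.5, 12.1 and 15.8 in Fb. The tissues did not overlap for either gene, where 4.67% of all genes were higher without overlap. These were the 2 of 10 members that passed, both higher, against 2.89% of all genes (log2 differences of 1.11 ± 0.121 and 1.35 ± 0.193, SE, limma adjusted p = 0.00149 and 0.00601). Without the Mb and Fb libraries labelled TKO_Ex replicate 3 both genes still passed (1.12 and 1.29, limma adjusted p = 0.0251 and 0.0247), against 1.21% of all genes. Vangl2 was 27.1, 25.6, 25.3 and 29.9 FPKM in TKO_Ex Mb and 20.5, 21.8, 24.3 and 26.3 in TKO_Ex Fb. Those groups overlapped, and the log2 difference of Vangl2 was 0.21 (95% interval -0.04 to 0.47, limma adjusted p = 0.513). It was 0.26 without the Mb and Fb libraries labelled TKO_Ex replicate 3 (limma adjusted p = 0.595). Celsr3 was 1.13, 1.07, 6.78 and 3.37 FPKM in Mb and 1.3, 4.06, 0.986 and 2.46 in Fb. Its log2 difference of 0.23 (limma adjusted p = 0.919) turned to -0.34 without the Mb and Fb libraries labelled TKO_Ex replicate 3. These held its highest Mb value and its lowest Fb value.

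In DKO_Ex 3 of 10 members passed, all higher in Mb, against 2.58% of all genes. Celsr1 was 11.2, 12.6 and 9.51 FPKM in Mb and 3.03, 3.0 and 3.04 in Fb, a log2 difference of 1.58 ± 0.163 (SE, limma adjusted p = 0.00391). Celsr2 was 44.4, 42.9 and 51.6 against 17.9, 16.2 and 20.4, a difference of 1.31 ± 0.132 (SE, limma adjusted p = 0.00375). Celsr3 was 5.99, 2.90 and 3.78 against 0.620, 0.772 and 0.835, a difference of 1.54 ± 0.278 (SE, limma adjusted p = 0.0369). All 3 genes stood apart between the tissues in every library. None of them still passed when any 1 of the 3 DKO_Ex replicates was left out (limma adjusted p of 0.0527 to 0.266). Vangl2 was 33.6, 29.0 and 26.0 in Mb and 19.4, 18.2 and 19.7 in Fb, with a log2 difference of 0.60 that missed the threshold (limma adjusted p = 0.0711). In all, 6 members were higher in Mb with no overlap in DKO_Ex, where 12.6% of all genes were.

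In DKO_CD no member passed, against 0.507% of all genes, and 4 members had an unadjusted p under 0.05 where 10.1% of all genes had. Celsr1 was 11.8, 10.04 and 10.5 FPKM in Mb and 3.92, 5.92 and 4.35 in Fb (log2 difference 1.05, limma adjusted p = 0.0959). Celsr2 was 44.1, 46.5 and 39.6 against 23.7, 30.6 and 18.7 (log2 difference 0.83, limma adjusted p = 0.153). Both genes were nevertheless separated in every DKO_CD library, as were 5 members in all, where 7.34% of all genes were higher with no overlap. By the listing of the files the 3 genes that passed in DKO_Ex passed in DKO_CD instead, and none passed in DKO_Ex.

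Over all 32 libraries the 16 Mb libraries lay above the 16 Fb libraries for Celsr1, at 9.51 to 12.6 FPKM against 3.0 to 5.92, and for Celsr2, at 31.7 to 57.1 against 12.1 to 30.6. Of the 13441 genes compared in this way, 0.945% were higher in Mb without overlap. The log2 difference of Celsr1 was between 1.05 and 1.58 in the 4 genotypes, that of Celsr2 between 0.83 and 1.35 and that of Vangl2 between 0.21 and 0.61. Fzd3 and Scrib were also positive in all 4 and Fzd6 was negative in all 4, without passing in any. WT Mb replicate 5, with few midbrain marker transcripts, had a Celsr1 level of 10.3 FPKM and a Celsr2 level of 45.5, both inside the range of the other Mb libraries.

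**Figure D2:**
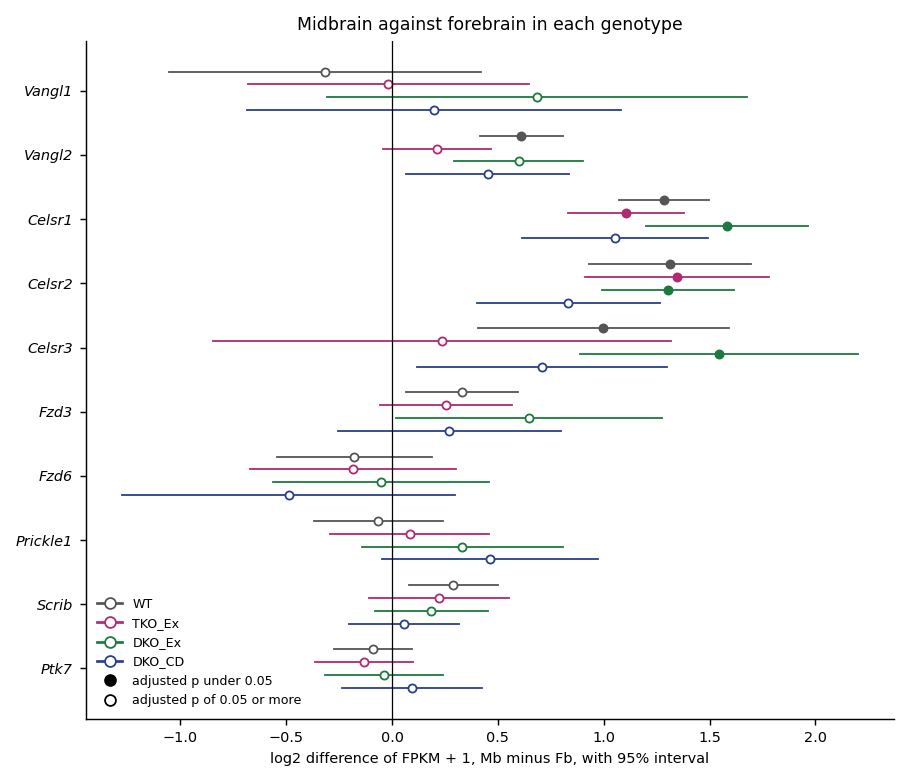
Difference between Mb and Fb for each gene in each of the 4 genotypes (horizontal axis, log2 of FPKM + 1, Mb minus Fb, bars the 95% interval of limma), with filled points where the adjusted p is under 0.05. Celsr1 and Celsr2 lie to the right of 0 in all 4 genotypes, with WT values of 1.28 and 1.31, and the intervals of Prickle1, Fzd6, Ptk7 and Vangl1 include 0.

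Whether losing the cadherins altered the members was asked in 6 comparisons of a mutant group with WT, 3 in each tissue, all of which share the WT libraries of their tissue. The 10 members gave 59 tests, because Celsr3 had a mean under 1 FPKM over the libraries of DKO_Ex and WT Fb and was not tested there. None of the 59 passed, and the adjusted p ranged from 0.447 to 0.999 in limma. The share of all genes that passed was small as well, at 0.0898%, 0.0903% and 0.0375% for TKO_Ex, DKO_Ex and DKO_CD in Mb and 0.0603%, 0.0759% and 0.0378% in Fb. Without the library labelled TKO_Ex replicate 3 the shares for TKO_Ex were 0.0674% in Mb and 0.0528% in Fb, and no member passed. At an unadjusted p under 0.05 there were 1, 0 and 0 members in Mb, where 8.38%, 5.46% and 6.69% of all genes had one in TKO_Ex, DKO_Ex and DKO_CD, and 2, 0 and 2 in Fb, where 8.66%, 7.01% and 8.44% had one. The median size of the 59 log2 differences was 0.12, and they ran from -0.65 to 0.70.

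The precision differed between members. For Ptk7 the 95% intervals of all 6 comparisons lay within -0.34 and 0.34, for Scrib within -0.42 and 0.32, and for Vangl2 within -0.56 and 0.37. Differences beyond 1.27-fold for Ptk7 and 1.47-fold for Vangl2, on the FPKM + 1 scale, lie outside these intervals. The intervals of Celsr1 lay within -0.54 and 0.66 and those of Celsr2 within -0.43 and 1.03. For Vangl1 they reached from -1.50 to 1.29 and for Celsr3 from -1.05 to 1.29, so that differences of up to 2.83-fold in Vangl1 and 2.44-fold in Celsr3 lay inside the intervals.

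The members that came nearest were few. Vangl2 in TKO_Ex Mb had 27.1, 25.6, 25.3 and 29.9 FPKM against a range of 28.7 to 36.3 in WT Mb, so 1 of 4 libraries was in the WT range. Its log2 difference was -0.26 ± 0.10 (SE, limma adjusted p = 0.535) and was -0.23 without the library labelled TKO_Ex replicate 3. In DKO_Ex Mb and DKO_CD Mb it was -0.13 and -0.25. Celsr1 in TKO_Ex Fb was 4.42 to 4.86 FPKM against 3.15 to 4.5 in WT Fb, with a log2 difference of 0.30 (limma adjusted p = 0.541) and of 0.29 without the library labelled TKO_Ex replicate 3 (limma adjusted p = 0.620). In DKO_Ex Fb it was 3.0 to 3.04 and below every WT Fb library, with a difference of -0.21 (limma adjusted p = 0.813), and 2.25% of all genes were lower without overlap in that comparison.

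Celsr2 in DKO_CD Fb was 23.7, 30.6 and 18.7 FPKM against 12.2 to 22.7 in WT Fb, with a log2 difference of 0.52 (95% interval 0.02 to 1.03, limma adjusted p = 0.579). Celsr3 in DKO_CD Fb was 1.61, 2.04 and 2.47 FPKM, above all 6 WT Fb libraries at 0.456 to 1.38, with a difference of 0.70 ± 0.221 (SE, limma adjusted p = 0.447). No overlap in that direction was found for 2.92% of all genes. In TKO_Ex Fb Celsr3 was 1.3, 4.06, 0.986 and 2.46 FPKM, with a difference of 0.68 (limma adjusted p = 0.519) and of 0.87 without the library labelled TKO_Ex replicate 3. In the same libraries the 6 neuron markers summed to 14.7 to 31.3 FPKM in DKO_CD Fb and 10.4 to 29.1 in TKO_Ex Fb, against 8.88 to 17.5 in WT Fb. Cranial mesenchyme markers summed to 126 to 173 FPKM in TKO_Ex Fb, 134 to 158 in DKO_Ex Fb and 98.4 to 219 in DKO_CD Fb against 184 to 216 in WT Fb. Surface ectoderm markers summed to 95.5 to 239, 89.3 to 177 and 84.4 to 219 against 63.7 to 108. Cranial mesenchyme sums in Mb were 131 to 173, 135 to 189 and 174 to 264 in TKO_Ex, DKO_Ex and DKO_CD. WT Mb had 107 to 196. In the same order surface ectoderm sums were 26.9 to 39.3, 37.0 to 38.9 and 23.8 to 77.8, against 26.6 to 41.2 in WT Mb. Neuron sums were 38.7 to 78.9, 55.1 to 76.2 and 42.4 to 85.6, against 39.8 to 90.7. The part of these cell types in the members' values was not tested.

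**Figure D3:**
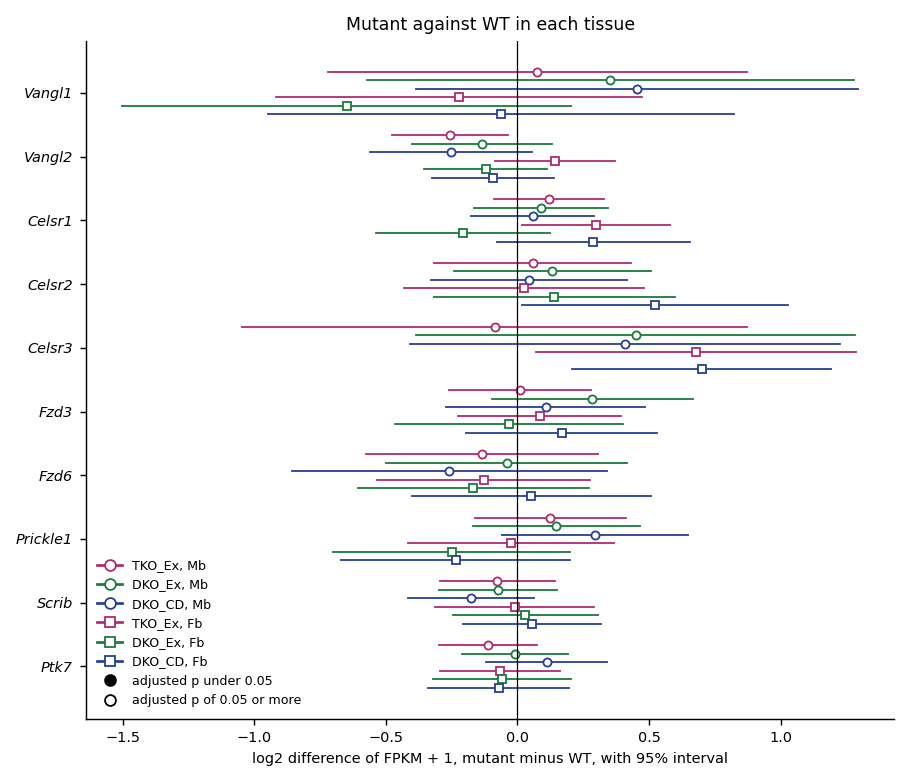
Difference between each mutant group and WT for each gene (horizontal axis, log2 of FPKM + 1, mutant minus WT, bars the 95% interval of limma), with circles for Mb and squares for Fb. All points are open because no adjusted p is under 0.05, and the bars are narrow for Ptk7 and Scrib and wide for Vangl1 and Celsr3.

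The difference between the Mb effect and the Fb effect of a genotype was tested as an interaction, 30 tests in all, and none passed (lowest limma adjusted p = 0.712), against 0.0149%, 0 and 0.00746% of all genes in TKO_Ex, DKO_Ex and DKO_CD. For Vangl2 in TKO_Ex the interaction was -0.40 ± 0.138 (SE, limma adjusted p = 0.712), and -0.35 without the Mb and Fb libraries labelled TKO_Ex replicate 3. For Prickle1 in DKO_CD it was 0.53 ± 0.237 (SE, limma adjusted p = 0.990). These were the 2 of 30 with an unadjusted p under 0.05, where 6.5%, 3.88% and 4.83% of all genes had one in TKO_Ex, DKO_Ex and DKO_CD. DKO_Ex and DKO_CD embryos were compared in Mb. They differ in exencephaly and, by the labels, in genotype, which cannot be told apart here, and the files of each are disputed as described. None of the 10 members passed, against 0.045% of all genes, and none had an unadjusted p under 0.05, against 6.48% of all genes. There the log2 difference of Celsr1 was 0.03 (95% interval -0.33 to 0.39), that of Celsr2 0.09 (-0.19 to 0.37) and that of Vangl2 0.12 (-0.29 to 0.53). For Vangl1 the interval was -1.06 to 0.87.

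The members also differed in how steady they were among libraries of 1 group. The coefficient of variation (CV), pooled over the 8 groups, was 9.52% for Ptk7, 10.4% for Celsr1, 11.2% for Scrib and 11.8% for Vangl2. Vangl1 had 46.7% and Celsr3 62.8%. Protein-coding genes at a level like that of Vangl1 had a median of 24.1%, and 92.0% of the 1371 such genes varied less. Celsr1, at nearly the same level, varied more than only 1.66% of 1387 such genes. By rough estimate, counting error alone would give 8.95% for Vangl1, at about 125 fragments a library, and 18.9% for Fzd6, at about 28 fragments. In WT Mb Vangl1 was 6.68, 2.75, 9.05, 2.49, 8.51 and 6.08 FPKM, a spread that the group's 6 Celsr1 values did not share. In the same order Celsr1 was 10.4, 10.8, 9.73, 10.8, 10.3 and 9.73.

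**Figure D4:**
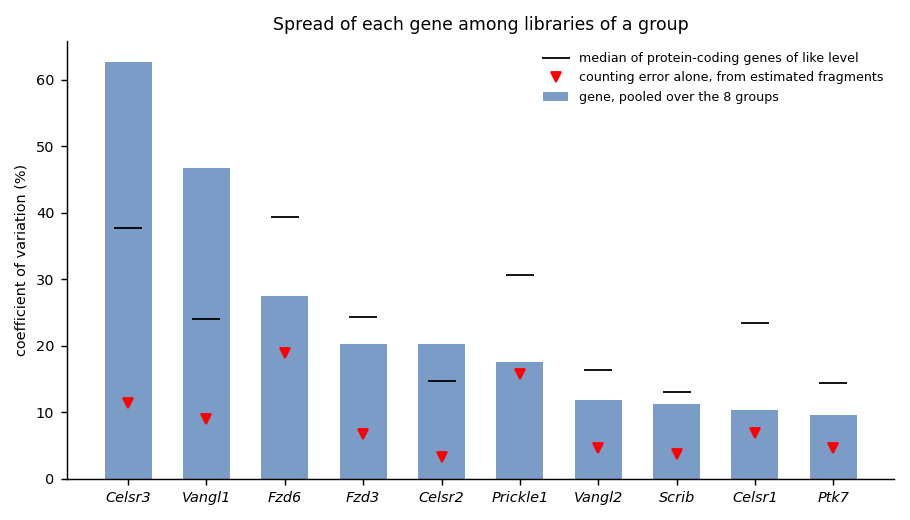
Coefficient of variation of each gene among libraries of a group, in percent (bars, pooled over the 8 groups), with the median of protein-coding genes of like level (black lines) and the value that counting alone would give, from estimated fragments (red triangles). Celsr3 (62.8%) and Vangl1 (46.7%) lie far above their lines, and Celsr1 (10.4%) far below its line.

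Of the other genes of the pathway, 42 were listed, and 39 were tested in WT Mb against WT Fb, with Wnt11, Sfrp5 and Prickle2 under the filter on low levels. In that comparison 5 of 39 were higher in Mb and 4 lower, where 4.66% and 3.6% of all genes were, and their median log2 difference was 0.03. Ligands and co-receptors moved in both directions. Wnt5a, the ligand best known for non-canonical signalling, was 10.3 to 21.0 FPKM in Mb (median 16.6) and 7.16 to 12.2 in Fb (median 8.21), a log2 difference of 0.80 ± 0.167 (SE, limma adjusted p = 0.00778). Wnt5b was 5.15 to 9.33 against 9.78 to 17.6, a difference of -0.96 ± 0.165 (SE, limma adjusted p = 0.00196). Gpc4, a glypican that binds Wnt ligands, was 2.71 to 5.04 against 8.42 to 16.5, a difference of -1.44 ± 0.180 (SE, limma adjusted p = 0.000141).

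Of 3 other Frizzled receptors listed, 2 were lower in Mb. Fzd2 was 22.4 to 35.4 FPKM in WT Mb and 41.5 to 62.7 in WT Fb (log2 difference -0.92, limma adjusted p = 0.000226), and Fzd1 was 5.69 to 9.46 against 10.8 to 12.7 (-0.59, limma adjusted p = 0.00267). Neither overlapped between the tissues, but the share of all genes that were lower in Mb without overlap is not given here. Downstream, the formin Daam2, which links Dishevelled to actin, was higher in Mb at 1.70 to 3.02 FPKM against 0.706 to 1.17 (0.74, limma adjusted p = 0.00482). Ankrd6, a homologue of the fly core gene diego, was higher (0.53, limma adjusted p = 0.0111), as were Daam1 (0.41, limma adjusted p = 0.0429) and Fjx1, a kinase of the Fat and Dachsous system (0.40, limma adjusted p = 0.0351). Dishevelled, Scrib-module and cilium-linked genes gave no further gene past the threshold.

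In TKO_Ex 1 of 39 listed genes was higher in Mb, the secreted Wnt antagonist Sfrp2 (0.59, limma adjusted p = 0.0374), and 3 were lower, Gpc4, Fzd2 and Fzd1, where 2.89% of all genes passed. Without the Mb and Fb libraries labelled TKO_Ex replicate 3 there were 0 higher and 2 lower, and without those labelled replicate 1 there were 0 and 0. In DKO_Ex 1 of 38 was higher, Daam2 (1.29, limma adjusted p = 0.0403), and 2 lower, Gpc4 and Fzd2, where 2.58% of all genes passed, and without any 1 DKO_Ex replicate there were none. In DKO_CD none of 39 passed, against 0.507% of all genes, and 7 had an unadjusted p under 0.05, against 10.1%. In the 6 comparisons of a mutant with WT, the 3 interactions and the comparison of the DKO groups, none of the listed genes passed in limma. In each of them 1 to 7 of 38 or 39 had an unadjusted p under 0.05 in limma. The share of all genes with one ran from 3.88% to 8.66%. The counts are not matched here to the share of their own comparison, so neither an excess nor a lack can be read from these ranges. Without WT replicate 1, 1 listed gene was higher in TKO_Ex Mb than in WT Mb.

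**Figure D5:**
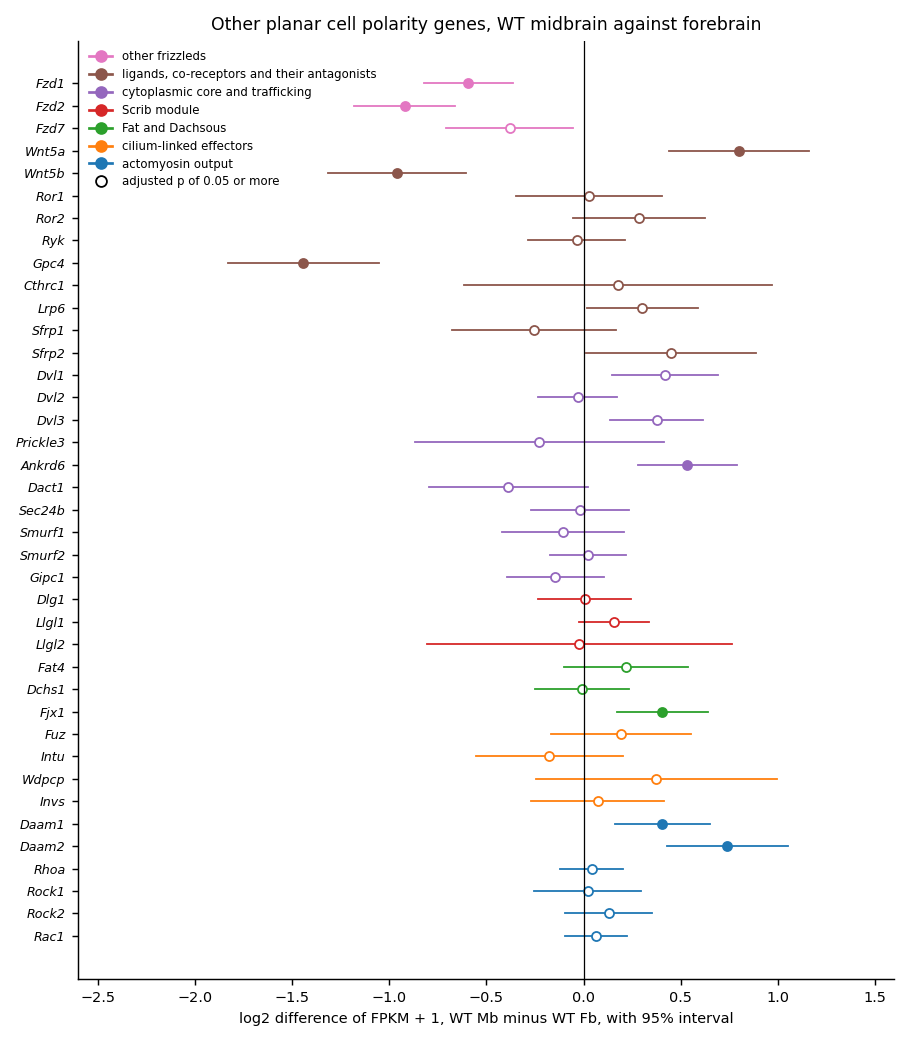
Difference between WT Mb and WT Fb for 39 other genes of the pathway (horizontal axis, log2 of FPKM + 1, Mb minus Fb, bars the 95% interval of limma), coloured by role, with filled points where the adjusted p is under 0.05. The 9 filled points are split between both sides of 0, from Gpc4 at -1.44 to Wnt5a at 0.80.

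For each member the genes with the most alike pattern were found by Pearson's r of log2(FPKM + 1) over the 32 libraries, among 11623 protein-coding genes. These libraries share tissue, so that a gene with a Mb and Fb difference resembles any other with one in the same direction. The genes most like Celsr1 were Fzd10 (r = 0.966) and Garem2 (0.964), those most like Celsr2 were Gnai2 (0.936) and Tubb2b (0.931), and those most like Vangl2 were Dmbx1 (0.886) and Fzd10 (0.882). Among the members themselves Celsr1 and Celsr2 were most alike (0.897), and Vangl2 was most like Celsr1 (0.825). Scrib was most like Msi1 (0.795) and Sept3 (0.792), Celsr3 like Mid1 (0.799) and Serinc1 (0.781), and Fzd3 like Cdkn1a (0.754) and Tnfrsf19 (0.747). The nearest genes of Vangl1, Fzd6, Prickle1 and Ptk7 had an r of at most 0.654, and they were Pwwp2b and Cmtm7, Fam104a and H2afx, Il4ra and BC005624, and Plekhj1 and Taf1.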

How the data were processed

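The 32 libraries held RNA of Fb or Mb dissected at E9.5. The authors prepared directional libraries, used TopHat2 with GRCm38/mm10 for alignment, and the deposited values are gene-level FPKM made with Cufflinks. Tool versions are not given in the sources used here. The authors' own tests used DESeq2 on HTSeq output, which is not used here. Where an identifier was repeated (65 cases) its FPKM values were added, and of the 48576 identifiers 48218 are in GENCODE M21 on GRCm38. Members were matched by identifier through that annotation.

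In 12 DKO files heading and record name opposite groups. Headings were followed, and the grouping by record was an alternative. The depth of a library was read off the spacing of its lowest FPKM values over 771 genes with 1 transcript and a length of 4000 bp or more, with a tolerance of 0.1 fragment. At this depth 76.7% to 84.4% of low values fell on whole multiples. The fragments of a gene were estimated as its FPKM times its joint exon length times this depth. That is rough for genes with several transcripts. With no counts, no read-count test was run, and the number of libraries and fragments limits the precision. WT and mutant embryos had different parents. Whether libraries of a group came from separate litters is not given in the labels, so p-values measure the spread between these libraries.

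Differences were tested with limma 3.58.1 (R 4.3.3, trend set in eBayes) on log2(FPKM + 1) in 14 comparisons, keeping genes whose mean in the fitted libraries reached 1 FPKM, with Benjamini-Hochberg adjustment over all genes and a threshold of 0.05. This fold understates changes of low genes. Neighbours in level were compared by exact permutation tests in SciPy 1.17.1 (Python 3.11.15). The fits were run on simulated data with the same dispersion for every gene, which does not cover a spread like that of Vangl1 or Celsr3. Named were all members, up to 5 other pathway genes per comparison past the threshold with the largest difference, Cdh6, Cdh8 and Cdh11, and the 2 genes most like each member. In WT 9 pathway genes passed, and all were named, the last 4 by size after their values were seen. The neuron marker Tubb3 was not analysed here. Members and lists were chosen with earlier results of these data known. Alternatives were pseudocounts of 0.1 and 5, no filter, median-of-ratios scaling, a replicate block, all 4 groups in 1 fit, the grouping by record and leaving out each replicate. A replicate left out lost both its Mb and its Fb library in fits that used both tissues. For the other pathway genes the alternatives were added after the data were seen.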

Additional observations from a re-analysis of the deposited data

Results flagged for a closer look

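In 52 groups of 4 or more libraries, 40 of them of the members, 3 had a library far from the others by Dixon's criterion, and chance gives about 1 in 20. Prickle1 was 4.10 FPKM in WT Mb replicate 1 and at most 3.40 in the other 5 WT Mb libraries. Prickle1 was 3.23 FPKM in TKO_Ex Mb replicate 1 and at least 3.87 in the other 3. Cdh6 was 3.10 FPKM in the library labelled TKO_Ex replicate 3 in Mb and at most 0.388 in the other 3.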

How the results depend on the processing

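The members that passed between Mb and Fb numbered 4 in WT, 2 in TKO_Ex, 3 in DKO_Ex and 0 in DKO_CD. Leaving out each replicate in turn gave 3 to 4 in WT, 2 to 2 in TKO_Ex, 0 to 0 in DKO_Ex and 0 to 0 in DKO_CD, and 0 to 0 in the 10 comparisons of mutants, and 6 to 8 neighbour pairs of 18 kept 1 order in every library. Grouping by record gave 0 in DKO_Ex and 3 in DKO_CD, since the groups exchange names. Celsr3 in WT missed the threshold with a pseudocount of 5 (limma adjusted p = 0.0691) and with no filter (0.0663), in DKO_Ex with a pseudocount of 5 (0.0603) and with no filter (0.0733), and Scrib in WT passed with median-of-ratios scaling (0.0366). No called member changed sign. Same-numbered Mb and Fb libraries of a genotype deviated together with correlations of 0.00756 to 0.140. Same-numbered mutant and WT libraries of a tissue, which cannot share an embryo, had correlations of -0.0863 to 0.0487. As the former were not all over 0.1, the main fits did not pair by number. Whether the numbers mark embryos was not settled, and in fits of both tissues of a genotype the replicate block allows for it. With the replicate block 4 members passed in WT, 2 in TKO_Ex, 2 in DKO_Ex, where Celsr3 was lost (0.0943), and 0 elsewhere. The counts over all genes moved more. With the block, genes past the threshold fell from 12 to 0 in TKO_Ex Mb, 12 to 1 in DKO_Ex Mb, 5 to 1 in DKO_CD Mb, 8 to 0 in TKO_Ex Fb, 10 to 2 in DKO_Ex Fb, 68 to 40 between the tissues of DKO_CD and 6 to 1 between the DKO groups. Against WT and between the DKO groups the block tied same-numbered libraries of different embryos. WT libraries without a mutant library of their number then added nothing to the difference. The falls in those comparisons thus do not bear on whether the numbers mark embryos. With no filter they went from 12 to 6 in TKO_Ex Mb, 8 to 5 in TKO_Ex Fb and 5 to 15 in DKO_CD Fb. In DKO_CD Fb a pseudocount of 5 gave 9 and scaling 8, and all 4 groups in 1 fit gave 9 in DKO_CD Mb and 0 between the DKO groups, where a pseudocount of 5 gave 3. Among interactions, TKO_Ex had 2 genes, 1 with a pseudocount of 0.1 and 0 with the block, DKO_Ex had 0 and 1 with the block, and DKO_CD had 1 and 5 with no filter. Grouping by record exchanged the DKO counts, 344 and 68 between the tissues. Leaving out a replicate gave 48 to 65 in place of 344 genes between the tissues of DKO_Ex, 8 to 53 in place of 68 in DKO_CD, 162 to 236 in place of 389 in TKO_Ex, and, against WT, 4 to 52 in place of 12 in TKO_Ex Mb, 3 to 14 in place of 12 in DKO_Ex Mb, 3 to 10 in place of 5 in DKO_CD Mb, 0 to 8 in place of 8 in TKO_Ex Fb, 6 to 14 in place of 10 in DKO_Ex Fb and 2 to 10 in place of 5 in DKO_CD Fb. It gave 1 to 10 in place of 6 between the DKO groups and 0 to 5 in place of 2 for the TKO_Ex interaction. Other pathway genes called in WT ranged from 3 to 6 higher and 4 to 5 lower. By the estimate Fzd6 and Prickle1 rested on few fragments. Counting alone would give them a CV of 18.9% and 15.8%, against 27.6% and 17.6% observed. For Celsr3 counting alone would give 11.4%, against 62.8% observed. The cause of these shifts was not tested.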
